A study of Homo sapiens with 7 samples.

Results

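The miR-424, miR-503, miR-542 and miR-450 genes form a cluster of 6 miRNA hairpins on the X chromosome. The data are 7 small RNA libraries of HepG2, an established human liver cancer line. The 7 miRNAs described here are hsa-miR-424-5p, hsa-miR-424-3p, hsa-miR-503-5p, hsa-miR-542-3p, hsa-miR-542-5p, hsa-miR-450a-5p and hsa-miR-450b-5p (the species prefix is left out below). They were chosen by name out of the 2652 mature miRNAs in each library. Of these 7, 6 passed the filter for testing (a mean count of at least 10), as did 458 miRNAs in all, and miR-542-5p did not. The siRNA-treated cells, whose genotype is given as TEAD1 knockdown, received siRNA 1 or siRNA 2 against TEAD1 for 24, 36 or 48 h, and the untreated cells (0 h) are given as WT. Each siRNA and time has 1 library, and the untreated cells have 1 library. TEAD1 is a DNA-binding transcription factor that acts with YAP and TAZ at the end of the Hippo pathway. The libraries do not measure its mRNA, and the labels give no cells that received a control siRNA. The effects of losing TEAD1, of transfection and of time in culture therefore cannot be told apart. In bulk RNA, fewer cells that make a miRNA and less of it per cell cannot be told apart. The labels do not say that libraries came from separate cultures, so the p-values rest on a spread between libraries that may be technical. In the comparisons of times, that spread also holds any difference between the siRNAs, since the 2 libraries of a time are 1 of each.

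A miRNA gene is transcribed as a long precursor, from which a hairpin is cut out and then trimmed to a short duplex. The strands of the duplex are the 5p and 3p arms, and the arm that is loaded into an Argonaute protein guides it to messenger RNAs that pair with the seed, the bases near the 5′ end of the miRNA. Hairpins that lie close together on one strand are often cut from a shared transcript, which is why the members of a cluster are commonly expected to rise and fall together. miR-424 and miR-503 belong to the extended miR-15 and miR-16 family, known for repressing cyclins and other drivers of the cell cycle. miR-424 is the human counterpart of mouse miR-322.

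In the reference annotation used here (GENCODE 29, GRCh38) all 6 hairpins lie on the minus strand of chromosome X, within 6527 bases. MIR424 (chrX:134546614-134546711) comes first in the direction of transcription and overlaps the first 19 bases of MIR503HG, a long noncoding host gene (chrX:134543337-134546632), while both its mature arms lie upstream of that gene. MIR503 (chrX:134546328-134546398) lies in an intron of MIR503HG. MIR542 (chrX:134541341-134541437) begins 1900 bases past the end of MIR503HG. MIR450A2 (chrX:134540508-134540607), MIR450A1 (chrX:134540341-134540431) and MIR450B (chrX:134540185-134540262) follow, and none of these last 4 hairpins overlaps MIR503HG. miR-450a-5p is cut from both MIR450A1 and MIR450A2, and its reads cannot be assigned to one of them.

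The RefSeq table (GRCh38.p14) held the mature sequence of 6 of the 7 miRNAs, each identical to the one in the deposited files. They are shown 5′ to 3′ so that seeds can be compared within the cluster, with the seed (bases 2 to 8) in capitals.
miR-424-5p: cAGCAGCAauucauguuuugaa
miR-424-3p: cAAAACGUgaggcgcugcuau
miR-503-5p: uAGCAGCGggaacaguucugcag
miR-542-5p: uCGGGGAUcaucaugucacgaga
miR-450a-5p: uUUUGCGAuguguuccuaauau
miR-450b-5p: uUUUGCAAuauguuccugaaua
The seed of miR-424-5p was carried by 7 of the listed miRNAs, of which 4 passed the filter, among them these 3 relatives from chromosomes 13 and 3, also from RefSeq.
miR-15a-5p: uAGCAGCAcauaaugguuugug
miR-15b-5p: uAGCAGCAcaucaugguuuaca
miR-16-5p: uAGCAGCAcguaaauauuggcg
Counted from 1 at the 5′ end, miR-424-5p and miR-503-5p differ within their first 8 bases by C1U and A8G. miR-503-5p was the only listed miRNA with its seed. miR-450a-5p and miR-450b-5p are both 22 bases long and differ at 6 positions, G7A, G10A, A18G, U20A, A21U and U22A. The first of these falls in the seed, and neither seed was shared with another listed miRNA. The hairpin of MIR424 is shown because its arms parted in the data, with the 5p arm and then the 3p arm in capitals.
MIR424: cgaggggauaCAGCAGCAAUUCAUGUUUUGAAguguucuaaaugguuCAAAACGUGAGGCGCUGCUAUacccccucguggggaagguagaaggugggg

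Libraries held 1920832 to 3739729 miRNA reads after siRNA treatment, against 6171851 in the untreated library, and miRNAs made up 13.4% to 26.5% of all reads after treatment, against 43.1%. The 36 h libraries stood far apart from each other: over the 458 miRNAs, the log2 difference of siRNA 2 minus siRNA 1 had an SD of 0.57 at 24 h, 1.22 at 36 h and 0.50 at 48 h. Whether one of them carries a wrong label cannot be settled from the files, so the labels were used as given, and members' results at 24 h and 48 h are given with and without the 36 h libraries. Of the liver markers, 4 of 5 had reads in every library, with a summed level of 16102 to 27464 CPM (the count of a miRNA relative to the TMM-scaled total of miRNA reads) after treatment, against 21011 CPM untreated, and miR-885-5p was at 0 throughout. miR-122-5p, the most liver-restricted of them, had 3.75 to 47.6 CPM after treatment, against 45.5 CPM untreated.

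The members of the cluster did not share 1 pattern. miR-542-3p and miR-424-5p were far lower in both 48 h libraries and in the siRNA 2 library of 36 h than in the other libraries. miR-424-3p, the other arm of the same MIR424 hairpin, was above its untreated level in all 3 of these libraries, and neither miR-424-3p nor miR-450a-5p was lower at 48 h than at 24 h on average. miR-503-5p and miR-450b-5p lay between, with smaller differences. In the fit on all 7 libraries with edgeR's quasi-likelihood test, none of these differences passed the threshold (Benjamini-Hochberg adjusted p under 0.05 over all tested miRNAs). Without the 36 h libraries, the lower 48 h levels of miR-542-3p and miR-424-5p passed it, against 24 h as well as against untreated cells. That fit leaves out the time whose libraries differed most from each other, a choice made with that difference known. Its p-values therefore rest on a smaller spread.

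miR-542-3p is known as a repressor of survivin, an inhibitor of cell death. It had 129 CPM (691 reads) in the untreated library. At 24 h it had 125 CPM (422 reads) with siRNA 1 and 135 CPM (324 reads) with siRNA 2. At 36 h it had 118 CPM (233 reads) with siRNA 1 and 10.7 CPM (26 reads) with siRNA 2, and at 48 h it had 10.5 CPM (24 reads) with siRNA 1 and 10.01 CPM (24 reads) with siRNA 2. The levels fell into a high group of 4 libraries and a low group of 3, with none between, and the 24 h and 48 h libraries did not overlap. The log2 fold change of 48 h against 24 h was -3.66 ± 0.99 (SE), 12.6-fold lower (edgeR adjusted p 0.244, unadjusted p 0.00788). Against untreated cells the 48 h value was -3.65 ± 1.07 (edgeR adjusted p 0.367). DESeq2 on the same counts gave -3.66 against 24 h (adjusted p 0.000815) and -3.58 against untreated cells (adjusted p 0.0270), so the call depends on the tool. With the 36 h libraries left out, the edgeR values were -3.70 ± 0.31 against 24 h (adjusted p 1.29e-10) and -3.63 ± 0.34 against untreated cells (adjusted p 1.36e-09). The size of the difference thus hardly moved without those libraries, while its SE became smaller, 0.31 against 0.99 for 48 h against 24 h.

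miR-424-5p, the arm that carries the miR-15 and miR-16 seed, followed the same libraries at a lower level. It had 13.2 CPM (71 reads) in the untreated library. At 24 h it had 19.2 CPM (65 reads) with siRNA 1 and 15.1 CPM (36 reads) with siRNA 2. At 36 h it had 18.7 CPM (37 reads) and 1.65 CPM (4 reads), and at 48 h it had 1.75 CPM (4 reads) and 3.34 CPM (8 reads), with siRNA 1 given first each time. Both 24 h libraries and the siRNA 1 library of 36 h were above the untreated library, and the other 3 were below it. The counts of the low libraries are few, so the sizes of the differences are known only roughly: with siRNA 1 the level at 48 h was 0.0909 times that at 24 h (95% exact Poisson interval 0.0241 to 0.244), and with siRNA 2 it was 0.222 times (0.0890 to 0.485). The log2 fold change was -2.73 ± 1.02 for 48 h against 24 h (edgeR adjusted p 0.250, unadjusted p 0.0324) and -2.36 ± 1.13 for 48 h against untreated cells (edgeR adjusted p 0.367). DESeq2 gave an adjusted p of 0.0722 against 24 h and 0.369 against untreated cells. Leaving out the 36 h libraries gave edgeR values of -2.76 ± 0.53 (adjusted p 1.81e-04) and -2.34 ± 0.59 (adjusted p 0.00408).

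miR-424-3p, cut from the same hairpin, did not follow its partner arm. It had 47.2 CPM (253 reads) in the untreated library. It had 64.1 CPM (217 reads) with siRNA 1 and 54.8 CPM (131 reads) with siRNA 2 at 24 h, then 60.2 CPM (119 reads) and 61.05 CPM (148 reads) at 36 h, and 73.8 CPM (169 reads) and 90.1 CPM (216 reads) at 48 h. All 6 siRNA-treated libraries were above the untreated one, and both 48 h libraries were above both 24 h libraries. The log2 fold change was 0.80 ± 0.37 for 48 h against untreated cells (edgeR adjusted p 0.367) and 0.46 ± 0.29 for 48 h against 24 h (edgeR adjusted p 0.412), so neither difference passed. With the 36 h libraries left out they were 0.82 ± 0.33 (adjusted p 0.0733) and 0.43 ± 0.27 (adjusted p 0.249), and neither passed. The direction against untreated cells depends on the scale: with all reads of a library as the scale, in place of TMM, the 48 h value was -0.31 and that of all times -0.58, where the median of all tested miRNAs was -1.14 and -1.13. Its values on that scale lay above those medians.

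miR-450a-5p had 55.4 CPM (297 reads) in the untreated library. Over 24, 36 and 48 h it had 49.9, 65.3 and 45.8 CPM under siRNA 1 (169, 129 and 105 reads) and 43.5, 44.1 and 69.3 CPM under siRNA 2 (104, 107 and 166 reads). The 48 h libraries overlapped with those of 24 h and lay on both sides of the untreated library. The log2 fold change was 0.30 ± 0.36 for 48 h against 24 h (edgeR adjusted p 0.667) and 0.06 ± 0.44 for 48 h against untreated cells (edgeR adjusted p 0.956). With the 36 h libraries left out these were 0.27 ± 0.29 (adjusted p 0.537) and 0.08 ± 0.34 (adjusted p 0.894).

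miR-450b-5p, its near relative, had 145 CPM (776 reads) in the untreated library. Over 24, 36 and 48 h it had 147, 142 and 88.2 CPM under siRNA 1 (497, 281 and 202 reads) and 128, 65.2 and 98.03 CPM under siRNA 2 (306, 158 and 235 reads). The lowest 3 libraries were the ones in which miR-542-3p was low, but its highest level was only 2.25 times its lowest. The log2 fold change was -0.56 ± 0.40 for 48 h against 24 h (edgeR adjusted p 0.462) and -0.63 ± 0.48 for 48 h against untreated cells (edgeR adjusted p 0.547). With the 36 h libraries left out these were -0.60 ± 0.25 (adjusted p 0.0769) and -0.62 ± 0.29 (adjusted p 0.129).

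miR-503-5p, which has a seed of its own within the extended miR-16 family, had 58.3 CPM (313 reads) in the untreated library. Over 24, 36 and 48 h it had 48.8, 71.3 and 36.2 CPM under siRNA 1 (165, 141 and 83 reads) and 63.97, 42.5 and 42.6 CPM under siRNA 2 (153, 103 and 102 reads). Its lowest levels came from the same 3 libraries, and the 24 h and 48 h libraries did not overlap. Its log2 fold change was -0.51 ± 0.37 for 48 h against 24 h (edgeR adjusted p 0.462) and -0.57 ± 0.44 for 48 h against untreated cells (edgeR adjusted p 0.547). Leaving out the 36 h libraries gave -0.55 ± 0.29 (adjusted p 0.162) and -0.55 ± 0.34 (adjusted p 0.253).

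miR-542-5p had 0 to 3 reads in a library, at or under the 3 reads that a count of 0 allows, so no change was detectable at this depth. The arms that are not members were as rare: miR-503-3p had 1 to 7 reads, miR-450a-1-3p 0 to 6, miR-450a-2-3p 2 to 4 and miR-450b-3p 0 to 1. None of these 4 passed the filter. MIR424 was thus the only hairpin of the cluster with both arms at testable levels.

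**Figure D1:**
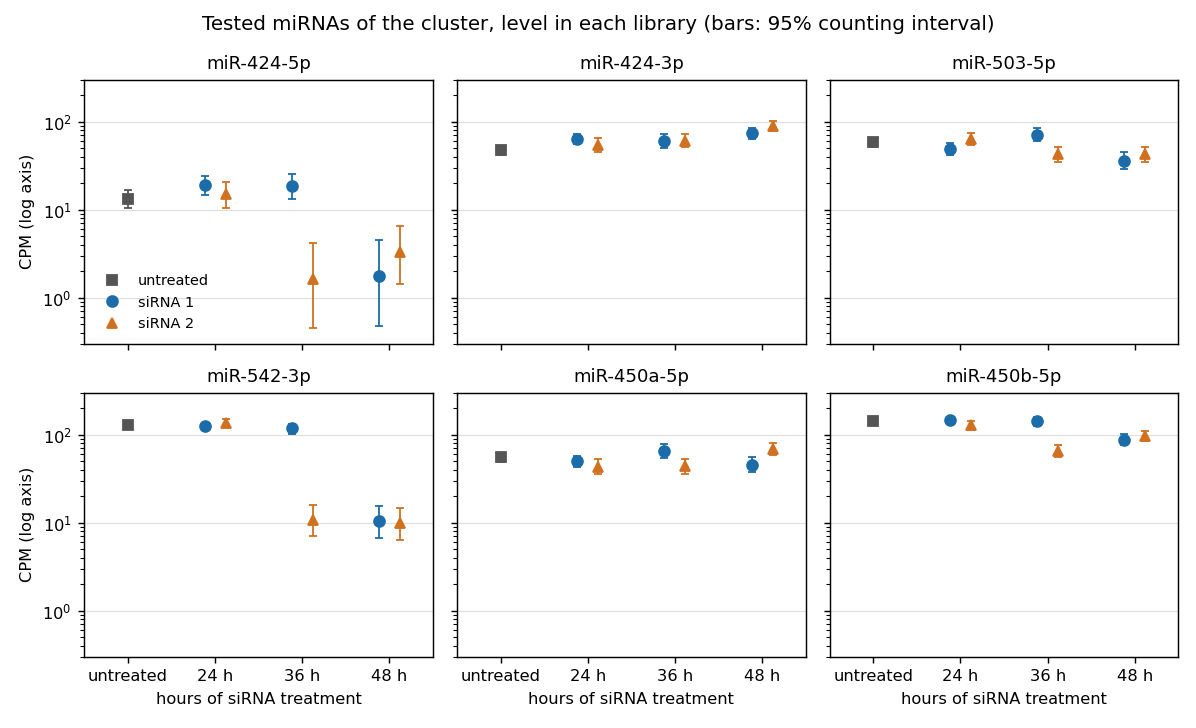
Level of the 6 tested miRNAs in each library, in CPM on a log axis, against the hours of siRNA treatment. Points are single libraries (square untreated, circle siRNA 1, triangle siRNA 2) and bars are 95% counting intervals; miR-542-3p sits at 118 to 135 CPM in 4 libraries and at 10.01 to 10.7 CPM in the other 3, while miR-424-3p stays between 47.2 and 90.1 CPM.

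**Figure D2:**
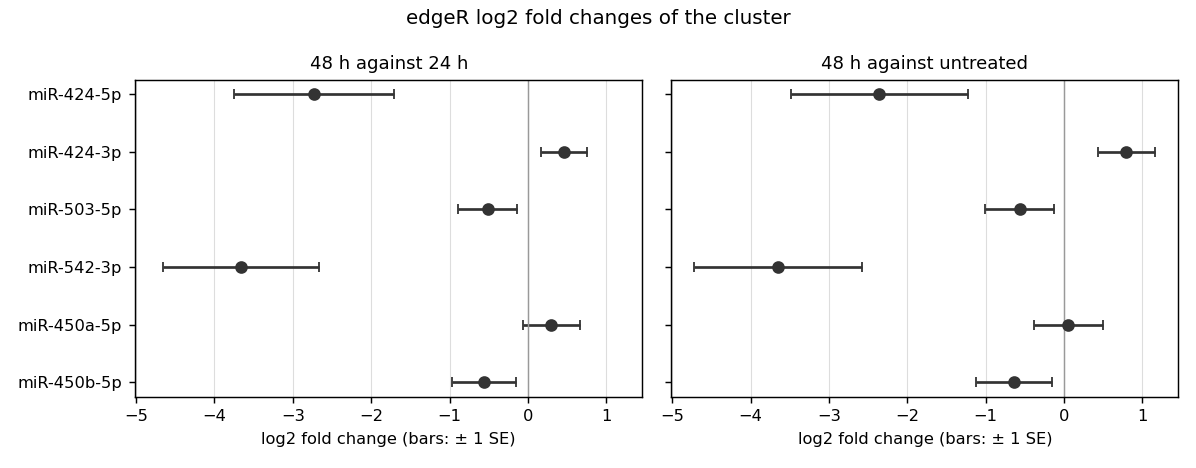
edgeR log2 fold change of each tested miRNA for 48 h against 24 h (left) and for 48 h against untreated (right), with bars of 1 SE each way. miR-542-3p and miR-424-5p lie between -3.66 and -2.36 in both panels, and the other 4 lie between -0.63 and 0.80.

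The ratio of the arms of MIR424 was taken within each library, and as a share of their reads it does not depend on how the library is scaled. Of the reads of both MIR424 arms, miR-424-5p made up 21.9% of 324 reads without treatment (71 reads; 95% Clopper-Pearson interval 17.5 to 26.8). It made up 23.05% (18.3 to 28.4) with siRNA 1 and 21.6% (15.6 to 28.6) with siRNA 2 at 24 h. At 36 h it made up 23.7% (17.3 to 31.2) with siRNA 1 and 2.63% (0.722 to 6.60) with siRNA 2, and at 48 h 2.31% (0.633 to 5.81) and 3.57% (1.55 to 6.92). The untreated, 24 h and siRNA 1 36 h libraries thus lay within each other's intervals, and the upper limits of the other 3 lay below the lower limits of those 4. The log2 ratio of miR-424-5p to miR-424-3p, taken from log2 CPM with a prior count of 2, was -4.71 ± 0.31 at 48 h and -1.76 ± 0.08 at 24 h (SD, n = 2 each), a difference of -2.95. The prior count follows library size and pulls ratios of few reads toward 0, and with a prior count of 0.5 the difference was -3.19. An exact two-sided permutation test gave p = 0.333, the smallest p that 2 libraries against 2 can give.

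**Figure D3:**
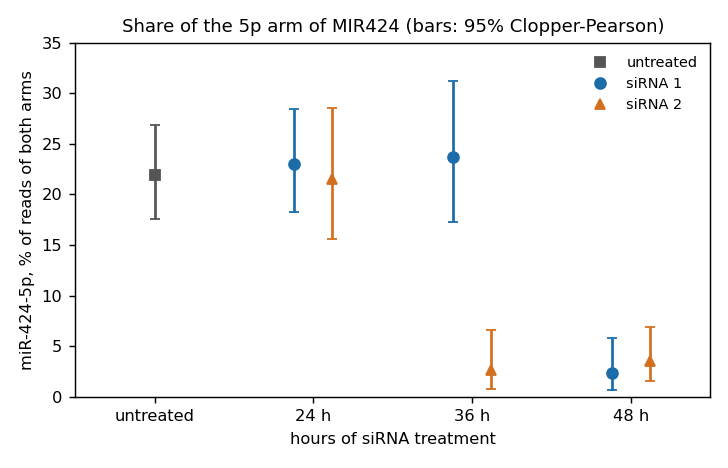
Share of miR-424-5p in the reads of both MIR424 arms (%), by hours of siRNA treatment, 1 point per library with its 95% Clopper-Pearson interval. The untreated, 24 h and siRNA 1 36 h libraries lie at 21.6% to 23.7% and the siRNA 2 library of 36 h and both 48 h libraries at 2.31% to 3.57%.

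The cluster as a whole was a small part of the miRNA reads, 0.0265% to 0.0490% of a library. Its 7 miRNAs summed to 448 CPM in the untreated library. The sums over 24, 36 and 48 h were 454, 476 and 257 CPM for siRNA 1 and 442, 226 and 313 CPM for siRNA 2. miR-542-3p gave the largest part of the gap between libraries. It held 28.7% of the reads of the cluster in the untreated library, 27.5% and 30.7% at 24 h, 24.8% and 4.74% at 36 h, and 4.08% and 3.20% at 48 h (siRNA 1, then siRNA 2). miR-424-3p held 10.5% in the untreated library, 14.1% and 12.4% at 24 h, 12.6% and 27.01% at 36 h, and 28.7% and 28.8% at 48 h in the same order. miR-450b-5p kept 28.8% to 34.4% in all 7 libraries. Without miR-542-3p and miR-424-5p the sum was 306 CPM untreated, 310 and 291 CPM at 24 h, 339 and 214 CPM at 36 h, and 245 and 299.9 CPM at 48 h.

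**Figure D4:**
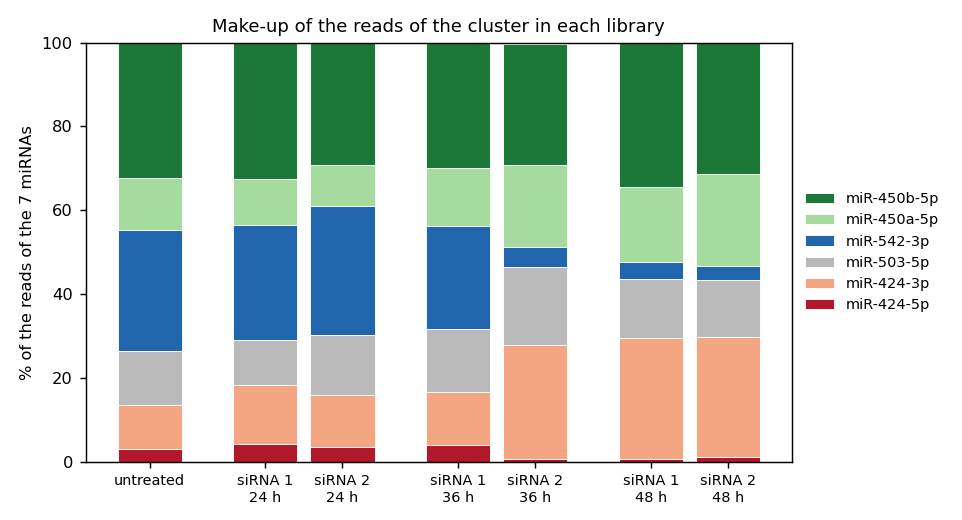
Share of each tested miRNA in the reads of the 7 miRNAs of the cluster (%), 1 bar per library, ordered by time. The miR-542-3p band is 24.8% to 30.7% wide in 4 libraries and 3.20% to 4.74% in the siRNA 2 library of 36 h and both 48 h libraries, where the miR-424-3p band is 27.01% to 28.8%.

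How closely members moved together was measured as the root mean square difference of their log2 CPM profiles over the 7 libraries, each profile centred on its own mean, so that 0 means parallel profiles. The 15 pairs of members had a median of 0.93, with a range of 0.28 to 1.95, while all 104653 pairs of tested miRNAs had a median of 0.65. Other clusters had medians of 0.60 (miR-17-92, 8 miRNAs), 0.47 (miR-106b-25, 6 miRNAs) and 0.44 (the cluster in CLCN5 on chromosome X, 10 miRNAs). Their farthest pairs stood 1.61, 1.64 and 0.87 apart in the same order, so pairs far apart were not particular to the members. The members closest to each other were miR-503-5p with miR-450b-5p (0.28) and miR-424-3p with miR-450a-5p (0.30). miR-542-3p and miR-424-5p stood 0.57 apart, yet miR-424-5p stood 1.48 from its own partner arm miR-424-3p, and miR-424-3p and miR-542-3p were the farthest pair (1.95). The 4 members other than miR-542-3p and miR-424-5p, set apart after their values were seen, had a median of 0.38. These values share their libraries and their scaling and are descriptions without a test. By the SD of log2 CPM over the 7 libraries, miR-542-3p was the 2nd most variable of 458 miRNAs (1.88) and miR-424-5p the 16th (1.41), against a median of 0.46, while miR-424-3p (0.30) and miR-450a-5p (0.27) were below that median.

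**Figure D5:**
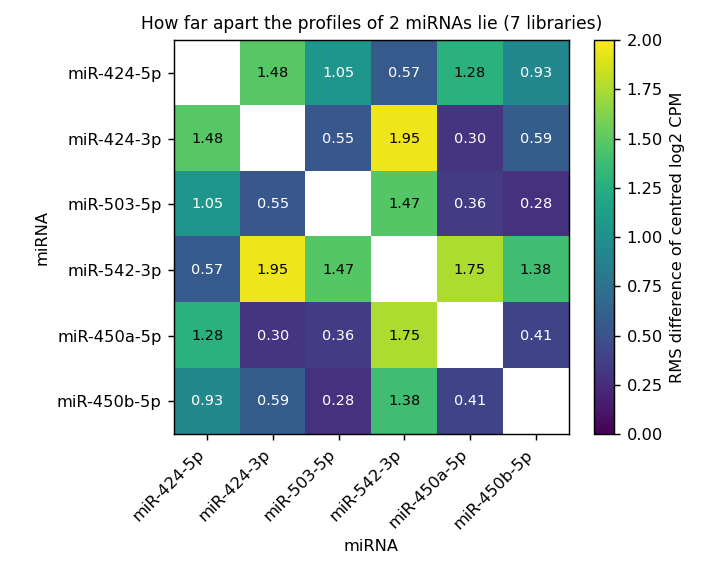
Root mean square difference between the centred log2 CPM profiles of each pair of the 6 tested miRNAs over 7 libraries, as colour and printed value. The values run from 0.28 for miR-503-5p with miR-450b-5p to 1.95 for miR-424-3p with miR-542-3p.

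Set against all tested miRNAs, differences between 48 h and 24 h were common, but few miRNAs were as far lower as miR-542-3p and miR-424-5p. In the edgeR fit on all 7 libraries, 0 of 6 members and 0 of 458 miRNAs (0%) passed for 48 h against 24 h, while 84 of 458 (18.3%) had an unadjusted p under 0.05, among them miR-542-3p and miR-424-5p. DESeq2 called 20 of 458 miRNAs (4.37%), among them 1 member, miR-542-3p. Without the 36 h libraries edgeR called 2 of 6 members, both lower, and 81 of 458 miRNAs lower (17.7%). The 48 h libraries were both below the 24 h libraries for 4 of 6 members, as for 151 of 458 miRNAs (33%), and both above for 1 of 6, as for 129 of 458 (28.2%), so non-overlap as such was common. The size was less common: 3 of 458 miRNAs had a log2 fold change at or below that of miR-542-3p, itself included, and 10 at or below that of miR-424-5p. The median log2 fold change was -0.54 over the 6 members and 0.03 over all 458 miRNAs. In the miR-17-92 cluster 6 of 8 miRNAs were below 0 with a median of -1.60, in the miR-106b-25 cluster 4 of 6 with a median of -0.28, and in the CLCN5 cluster 9 of 10 with a median of -0.47. None of these passed in the fit on all 7 libraries. Leaving out the 36 h libraries, 6 of 8, 1 of 6 and 2 of 10 passed as lower in these 3 clusters.

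The 48 h libraries against untreated cells gave a like picture, and the comparisons share libraries, so the values are not independent. By edgeR, 0 of 6 members and 0 of 458 miRNAs (0%) passed for 48 h against untreated, with 53 (11.6%) at an unadjusted p under 0.05, and DESeq2 called 12 (2.62%), miR-542-3p among them. Without the 36 h libraries edgeR called 2 of 6 members, both lower, and 70 of 458 miRNAs lower (15.3%).

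At 24 h the cluster was close to the untreated library. The log2 fold changes of the members ran from -0.24 ± 0.44 (SE) for miR-450a-5p to 0.37 ± 1.06 for miR-424-5p, and miR-542-3p had 0.01 ± 1.05. None of the 6 members passed by edgeR (adjusted p 0.997 for each), nor did any of 458 miRNAs (0%), with 11 (2.4%) at an unadjusted p under 0.05, and DESeq2 called 1 (0.218%), not a member. Leaving out the 36 h libraries, the members ran from -0.19 ± 0.34 to 0.43 ± 0.50 (adjusted p 0.998 for each), and 0 of 6 were among the 5 of 458 miRNAs called (1.09%).

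At 36 h the libraries of siRNA 2 and siRNA 1 differed for most members. With 1 library each, an effect of the siRNA, of the library or of a wrong label cannot be told apart. siRNA 2 minus siRNA 1 was -3.38 for miR-542-3p on the log2 scale, -3.05 for miR-424-5p, -1.12 for miR-450b-5p, -0.74 for miR-503-5p, -0.56 for miR-450a-5p and 0.02 for miR-424-3p. In reads, the miR-542-3p level with siRNA 2 was 0.0910 times that with siRNA 1 (95% exact Poisson interval 0.0582 to 0.137), and the same ratio was 1.09 (0.937 to 1.26) at 24 h and 0.955 (0.520 to 1.76) at 48 h. For this miRNA the siRNA 1 library of 36 h was thus within counting error of the siRNA 1 library of 24 h (0.945 times, 0.802 to 1.11), and the siRNA 2 library of 36 h was within counting error of the siRNA 2 library of 48 h, whose level was 0.934 times as high (0.513 to 1.69). The pooled 36 h values against untreated cells therefore describe neither library: they ran from -1.01 ± 1.03 for miR-542-3p to 0.36 ± 0.36 for miR-424-3p. By edgeR 0 of 6 members and 0 of 458 miRNAs (0%) passed for 36 h against untreated, with 19 (4.15%) at an unadjusted p under 0.05, and DESeq2 called 7 (1.53%), none of them a member. With the siRNA 2 library as the only one of 36 h, assumed to vary like the other groups, miR-542-3p (-3.55), miR-424-5p (-2.94) and miR-450b-5p (-1.12) passed as lower (adjusted p 5.68e-07, 0.00874 and 0.0243), among 94 of 458 miRNAs called (20.5%). With the siRNA 1 library as the only one of 36 h, miR-542-3p had -0.13 (adjusted p 0.974) and miR-424-5p 0.50 (adjusted p 0.904), and 0 of 6 members were among the 11 of 458 miRNAs called (2.4%).

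Over all times against untreated cells, miR-542-3p had -1.55 ± 0.83 (SE), miR-424-5p -0.79 ± 0.90, miR-450b-5p -0.40 ± 0.42, miR-503-5p -0.22 ± 0.39, miR-450a-5p -0.07 ± 0.38 and miR-424-3p 0.50 ± 0.33. None passed by edgeR (adjusted p 0.900 to 0.975), nor did any of 458 miRNAs (0%), with 23 (5.02%) at an unadjusted p under 0.05, and DESeq2 called 1 (0.218%), not a member. Without the 36 h libraries miR-542-3p passed at -1.78 ± 0.27 (adjusted p 2.68e-05), 1 of 42 miRNAs called (9.17%). All 6 treated libraries were above the untreated one for 1 of 6 members, miR-424-3p, as for 47 of 458 miRNAs (10.3%), and all 6 were below it for 0 of 6, as for 62 of 458 (13.5%).

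Between the siRNAs over the 6 treated libraries, with time as a factor, siRNA 2 minus siRNA 1 was -1.01 ± 0.77 for miR-542-3p, -0.93 ± 0.85 for miR-424-5p and -0.36 to 0.06 for the other 4. None passed by edgeR (adjusted p 0.992 for each), nor did any of the 435 miRNAs tested (0%), with 6 (1.38%) at an unadjusted p under 0.05, and DESeq2 called 0. Both of the larger differences came from 36 h: without the 36 h libraries they were 0.14 and 0.09.

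The seed of miR-424-5p was mostly supplied by its relatives. miR-424-5p made up 1.35% of all reads with that seed without treatment (95% Clopper-Pearson interval 1.06 to 1.70), 1.44% and 0.742% at 24 h, 0.995% and 0.185% at 36 h, and 0.132% and 0.250% at 48 h (siRNA 1, then siRNA 2). miR-16-5p held most of them, at 648 to 1698 CPM after treatment, against 691 CPM untreated. All miRNAs with that seed summed to 979 CPM in the untreated library, 1335 and 2028 CPM at 24 h, 1881 and 890.2 CPM at 36 h, and 1323 and 1333 CPM at 48 h in the same order. These sums hold for the TMM scale: with all reads as the scale, the log2 fold changes of 48 h against untreated cells were -1.45 for miR-15a-5p, -0.96 for miR-15b-5p and -0.55 for miR-16-5p, where the median of all tested miRNAs was -1.14. For 48 h against 24 h the log2 fold changes were -0.68 ± 0.52 for miR-15a-5p, -0.11 ± 0.39 for miR-15b-5p and -0.38 ± 0.43 for miR-16-5p (edgeR adjusted p 0.483 to 0.870). Of the 5 miR-15 and miR-16 relatives listed, these 3 passed the filter and 0 were called in any comparison of the edgeR fit on all 7 libraries.

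The miRNAs outside the cluster nearest to the mean profile of its 6 tested members, out of 271 with a mean count of at least 50, were miR-31-5p (0.13), miR-17-5p (0.13), miR-103a-3p (0.13), miR-148b-5p (0.15) and miR-27a-3p (0.16), by the same root mean square difference over 7 libraries. That mean profile lies between the members rather than on any of them. Chosen after the values were seen, the nearest to miR-542-3p were miR-101-3p (0.28), miR-340-5p (0.29) and miR-374a-3p (0.30), and the nearest to miR-424-5p was miR-106b-5p (0.15). The 48 h libraries (siRNA 1, siRNA 2) had 453 and 372 CPM of miR-101-3p, against 2937 and 3353 CPM in the 24 h libraries. They had 57.6 and 89.3 CPM of miR-106b-5p, against 355 and 345 CPM. The nearest to miR-424-3p was miR-130b-5p (0.11), with 110 and 138 CPM in the 48 h libraries, against 85.7 and 79.03 CPM in the 24 h libraries.

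Several other measures differed between the libraries, not all of them along with miR-542-3p, and their part in the result was not tested. Base composition was one, grouped after the values were seen: the median log2 fold change of 48 h against 24 h was -0.93 for the 41 miRNAs with under 35% G and C, -0.35 for 99 with 35% to 45%, 0.03 for 167 with 45% to 55%, and 0.29 for 151 with more. Among the members, miR-450b-5p with 27.3% G and C was at -0.56, miR-450a-5p with 31.8% at 0.30 and miR-424-5p with 36.4% at -2.73. miR-424-3p with 52.4% was at 0.46 and miR-503-5p with 56.5% at -0.51. The G and C share of miR-542-3p is not given here, since RefSeq held no mature sequence for it. That member was at -3.66, so these values leave out the member that differed most. Of the 5 neuron markers, 3 had reads in every library, miR-124-3p was at 0 in all of them, and the summed level was 7824 CPM (siRNA 1, 48 h), 7477 CPM (siRNA 2, 36 h) and 7205 CPM (siRNA 2, 48 h) in the 3 libraries with low miR-542-3p. It was 3445 to 3937 CPM in the remaining 4, nearly all of it miR-128-3p everywhere. By contrast miR-137-3p had 4.80, 2.06 and 6.26 CPM in the same order and 9.13 to 12.96 CPM in the remaining 4, and miR-9-5p had 25.2 to 44.6 CPM over all 7. The 5 blood markers, with miR-223-3p at 0 in all libraries, summed to 44.98, 76.7 and 35.04 CPM in the same order, and to 14.2 to 24.8 CPM in the remaining 4. Most of each sum was miR-451a (41.9, 73.0 and 32.1 CPM in the same order). miR-142-3p had 1.24 to 3.04 CPM over all 7 libraries, and miR-144-3p and miR-150-5p had 0 to 1.24 CPM. The 6 markers of fibroblasts, smooth muscle and endothelium, none at 0 in all libraries, summed to 442 to 1067 CPM after treatment, against 458 CPM untreated, with the highest sums in the 2 libraries of 36 h. miR-143-3p made up most of these 2 sums (745 CPM with siRNA 1, 707 CPM with siRNA 2). miR-126-3p was instead highest with siRNA 2 at 48 h (437 CPM). The 3 striated muscle markers summed to 876 CPM in the siRNA 1 library of 36 h, nearly all of it miR-1-3p, and to 21.0 to 52.8 CPM in the other treated libraries, against 23.1 CPM untreated. miR-122-5p, the liver marker, had 4.37, 6.60 and 3.75 CPM in the 3 libraries with low miR-542-3p (order as above) and 4.60 CPM with siRNA 2 at 24 h, and 32.2 to 47.6 CPM in the remaining 3. The miRNA share of all reads at 36 h was 13.4% with siRNA 1 and 15.8% with siRNA 2.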

How the data were processed

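The authors deposited 1 table per library with read counts per mature miRNA, per the file headers, and the labels' protocols name a column kit for total RNA and a ligation-based kit from NEB. The sources used here do not name the aligner, counter or genome build. Lines for reads given to no miRNA (56.9% of reads in the untreated library, 73.5% to 86.6% after treatment) stayed out of library sizes and tests. Tests covered the 458 miRNAs whose mean count was 10 or more, and ran with edgeR 4.0.16 (R 4.3.3; TMM, quasi-likelihood F-test, Benjamini-Hochberg threshold 0.05), with untreated, 24, 36 and 48 h as groups in 1 fit. The untreated group, with 1 library, was taken to vary as the others do. siRNA 2 against siRNA 1 used the 6 treated libraries and 435 miRNAs. SE is the size of the log2 fold change divided by the square root of F. DESeq2 1.42.0 was an alternative. log2 CPM used a prior count of 2. Intervals (95%) come from the read counts of single libraries, so they cover counting error only. Reads carry no molecular identifiers, so copies of 1 molecule count as separate reads and the intervals may be too narrow. Libraries of a time differed by far more than sampling noise. Scripts were tested on simulated counts. The 7 miRNAs, the other lists and the tests were chosen with earlier results of these data known. The rule was to name all 7, the other arms, the miR-15 and miR-16 family and the 5 miRNAs of nearest profile. Alternatives were other scales, no count filter, left-out libraries, the siRNA number as a block and a prior count of 0.5. Coordinates come from GENCODE 29 and RefSeq.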

Additional observations from a re-analysis of the deposited data

Results flagged for a closer look

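The measured difference of miR-424-5p from the untreated library lay on opposite sides of 0 at 48 h and 24 h, though the 24 h difference did not pass. Both 48 h libraries (1.75 and 3.34 CPM) were below the untreated library (13.2 CPM), and both 24 h libraries (19.2 and 15.1 CPM) were above it. The 24 h side depends on the scale: with all reads as the scale, in place of TMM, the log2 fold change against untreated was -3.46 at 48 h and -0.52 at 24 h, both below 0. On the TMM scale, the mean log2 difference between the times was -2.50. The untreated library cancels in this difference, so its test is that of 48 h against 24 h, which gave an edgeR adjusted p of 0.250 on all 7 libraries and 1.81e-04 without the 36 h libraries. At 24 h against untreated the log2 fold change was 0.37 ± 1.06 (SE) and did not pass (edgeR adjusted p 0.997).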

How the results depend on the processing

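The number of members called was 0 in each comparison by edgeR on all 7 libraries. DESeq2 called 1 for 48 h against 24 h and 1 for 48 h against untreated. With all reads as the scale 3 were called for all times against untreated, 1 for 36 h, 4 for 48 h against untreated and 2 for 48 h against 24 h, beside 26.2%, 10.7%, 25.8% and 6.33% of all tested miRNAs, and without a count filter 1, 0, 2 and 2, beside 0.769%, 0.641%, 2.5% and 3.27%. Without both 36 h libraries 1 was called for all times against untreated, 2 for 48 h against untreated and 2 for 48 h against 24 h. With 1 library left out the calls ran from 0 to 2 for all times, 0 to 3 for 36 h, 0 to 2 for 48 h against untreated and 0 to 2 for 48 h against 24 h. Calls appeared only where a 36 h library was the one left out, and the share of all tested miRNAs called was then 15.3% (siRNA 1 left out) and 6.55% (siRNA 2 left out) for all times, 20.5% and 2.4% for 36 h, 21% and 24% for 48 h against untreated, and 27.7% each for 48 h against 24 h. The cause was not tested.

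Directions turned for values near 0 and for some larger ones. By edgeR on all 7 libraries, miR-424-3p had 0.80 at 48 h against untreated and 0.50 over all times. On the 6 treated libraries, siRNA 2 minus siRNA 1 was -1.01 for miR-542-3p. Scaled by all reads of a library (median of the tested miRNAs -1.25 to -0.97 against untreated), miR-424-3p had -0.58 over all times, -0.57 at 24 h, -0.85 at 36 h and -0.31 at 48 h, miR-424-5p -0.52 and miR-542-3p -0.93 at 24 h, and miR-450a-5p -1.05 at 48 h. With total miRNA counts (median 0.37 for 48 h against 24 h), miR-503-5p had 0.010 over all times, 0.28 at 36 h and 0.019 between the siRNAs, and miR-450a-5p 0.17, 0.30 and 0.0010. With DESeq2, miR-450a-5p had 0.00087 over all times and 0.0520 at 36 h, and miR-503-5p 0.013 at 24 h, 0.031 at 36 h and 0.00093 between the siRNAs. With its size factors in edgeR these were 0.00089, 0.0522, 0.014, 0.031 and 0.00088. Without a count filter miR-542-3p had -0.0495 at 24 h and miR-450a-5p -0.0181 at 48 h against untreated. Without both 36 h libraries miR-503-5p had 0.0044 at 24 h, and siRNA 2 minus siRNA 1 was 0.0942 for miR-424-5p, 0.41 for miR-503-5p, 0.14 for miR-542-3p, 0.30 for miR-450a-5p and 0.0731 for miR-450b-5p.

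With 1 library left out, miR-450a-5p ran from -0.18 to 0.0201 over all times, -0.30 to 0.24 at 36 h, -0.27 to 0.32 at 48 h against untreated and -0.0276 to 0.57 for 48 h against 24 h. miR-503-5p ran from -0.26 to 0.13 at 24 h and -0.43 to 0.29 at 36 h, miR-542-3p from -0.0467 to 0.0729 and miR-450b-5p from -0.18 to 0.0219 at 24 h, and miR-424-5p from -2.94 to 0.50 at 36 h. Between the siRNAs the ranges were -1.62 to 0.0737 for miR-424-5p, -0.0835 to 0.18 for miR-424-3p, -0.23 to 0.38 for miR-503-5p, -1.83 to 0.12 for miR-542-3p, -0.36 to 0.26 for miR-450a-5p and -0.64 to 0.0367 for miR-450b-5p. For 48 h against 24 h, miR-542-3p and miR-424-5p were lower under every alternative run.

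Libraries with the same siRNA number did not deviate together (correlations 0.10, -0.25 and -0.16 between times). The siRNA number as a replicate block gave 0 members called in each time comparison, as did the fit of the siRNAs without the time term. A prior count of 0.5 moved the arm ratio difference to -3.19. Counts of 4 to 8 reads limit miR-424-5p in the low libraries.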
